A study of Homo sapiens and Mus musculus with 55 samples.

Results

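The libraries described here came from mock MDA-MB-436 and mock SUM159PT cells, which stand as controls beside cells carrying STING sgRNA. MDA-MB-436 (2 libraries) and SUM159PT (2 libraries) are established human breast cancer lines classed as triple-negative, that is, without oestrogen receptor, progesterone receptor or HER2 amplification. These 4 libraries of 55 were labelled with the genotype Mock and a name that reads as parental cells for CRISPR. The comparison was chosen by these labels, and no measured value took part in the choice. By its title, the study is about repression of STING by the oncogene MYC and escape of such tumours from immune control. A second set of 4 libraries, MDA-MB-436 parental (2) and SUM159PT parental (2), carried the label of no treatment and served as a repeat in other libraries. For 3 further repeats, the pairs were MDA-MB-436 and SUM159PT cells with STING sgRNA C1, with STING sgRNA C2, and with STING sgRNA plus a GFP ORF. The C1 and C2 libraries stand in the same tables as the mock ones, and the libraries with the GFP ORF stand in others. No label names a clone, a vector, a culture date or a separate culture for replicates, so p-values measure only the spread between libraries of 1 group, which may be technical.

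STING is the membrane adaptor of a DNA-sensing pathway. The enzyme cGAS detects DNA in the cytosol and makes a cyclic dinucleotide that activates STING, which in turn drives interferon-stimulated genes through TBK1 and IRF3 and inflammatory genes through NF-kB. Chemokines induced this way, CCL5 and CXCL10 among them, attract T cells. Breast cancer lines of the mesenchymal type express vimentin and few epithelial junction genes, and lines of one clinical class can still differ widely in matrix, growth factor and immune genes.

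Values are CPM, reads of a gene rescaled to a common total, each library by its own sum. The 2 lines stand in 2 tables that were normalized separately, so a difference between the lines and a difference between the tables cannot be told apart. The 4 mock libraries held 6974676 to 7387399 reads and the parental ones 9835655 to 13191675. There were 27125 genes listed for MDA-MB-436 and 26382 for SUM159PT, of which 24281 stood in both. Of these, 15218 had a mean of at least 2 CPM in either line and were tested on log2(CPM + 0.5) by limma, two-sided, with Benjamini-Hochberg adjustment over all of them. A gene was called when its adjusted p was below 0.05 and the lines differed by at least 2-fold. Fold changes are MDA-MB-436 over SUM159PT, are given as log2 ± SE, and understate the change of low genes. With 2 libraries a line, an exact permutation test of a single gene cannot go below p = 0.333, so the p-values rest on the spread shared across genes.

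Mock MDA-MB-436 and mock SUM159PT cells differed in 1717 genes, 11.3% of those tested. The calls leaned to one side, with 1101 genes (7.23%) higher and 616 (4.05%) lower in MDA-MB-436. These shares of all genes are the background for every count of list members called in mock below. At least 4-fold differences were seen for 578 genes, 360 higher and 218 lower. On the other side, 88.7% of the genes tested lay within 2-fold, and the median log2 fold change over all of them was 0.024. Across genes, log2 values correlated with r = 0.9942 between the MDA-MB-436 libraries, r = 0.9934 between the SUM159PT libraries and r = 0.9176 to 0.9194 between lines. Every gene at least 2-fold apart also passed the adjusted p, so the fold and not the p set the count. At adjusted p alone, 8732 genes (57.4%) differed, 30.4% of all genes being higher and 26.9% lower in MDA-MB-436.

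**Figure D1:**
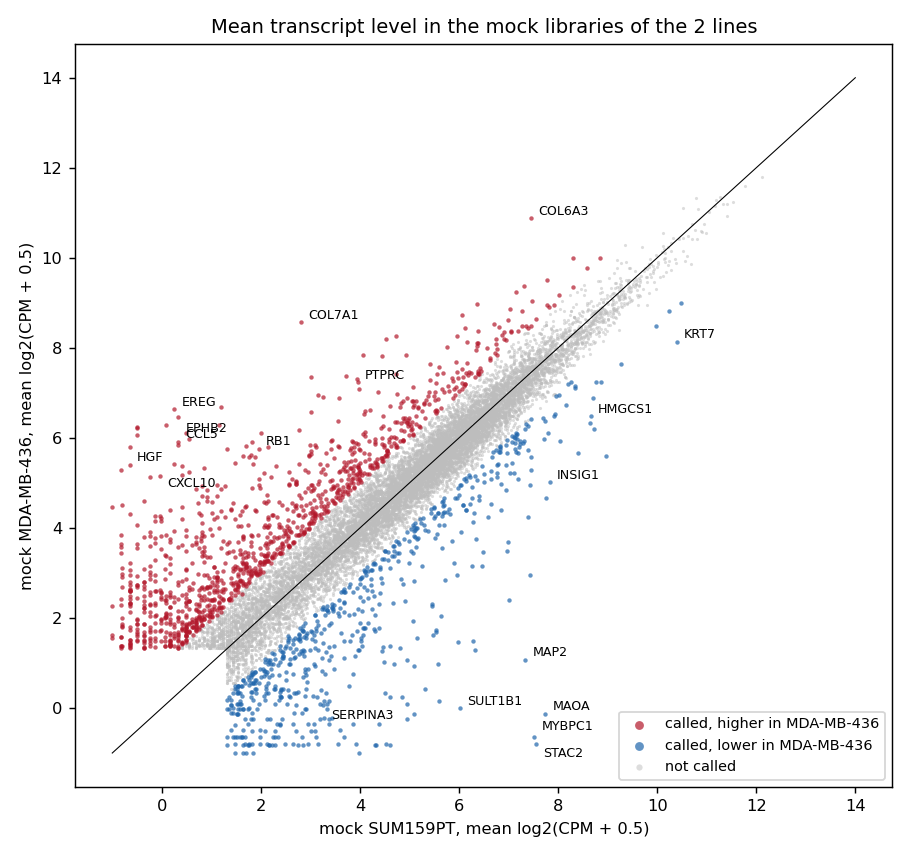
Mean log2(CPM + 0.5) of each of the 15218 genes tested, in mock MDA-MB-436 (vertical axis) against mock SUM159PT (horizontal axis), where each point is a gene, coloured points are the 1101 higher and 616 lower genes called, and the line marks equal levels. Most genes lie along the line, and STAC2, MYBPC1 and MAOA lie lowest beneath it.

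The cells were first set against the markers of their labels. VIM, which encodes the mesenchymal filament vimentin, was at 2178 and 2166 CPM in MDA-MB-436, against 1833 and 1774 CPM in SUM159PT. The epithelial adhesion gene EPCAM had 0 reads in all 4 mock libraries, which allows up to 3 reads over each group. The oestrogen receptor gene ESR1 was at 0.430 and 0.271 CPM in MDA-MB-436 and 0.274 and 0.139 CPM in SUM159PT. ERBB2, which encodes HER2, was not called, at 101.2 and 101.1 CPM in MDA-MB-436 and 110.4 and 108.0 CPM in SUM159PT (log2 -0.11 ± 0.06, limma adjusted p = 0.116). Both lines thus read as vimentin-high, with ESR1 under 1 CPM and ERBB2 alike within 2-fold. CDH1, which encodes E-cadherin, is not analysed here in the mock libraries.

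RB1 stood apart from what is usually written of these lines. RB1 encodes the retinoblastoma protein, the brake on entry into S phase, and MDA-MB-436 is commonly described as RB1-deficient. RB1 was at 55.9 and 51.4 CPM in mock MDA-MB-436, against 3.84 and 2.92 CPM in mock SUM159PT (log2 3.81 ± 0.15, limma adjusted p = 1.37e-18). The groups did not overlap, and the line usually called deficient was the higher one. In parental libraries RB1 was at 96.1 and 97.7 CPM in MDA-MB-436 and 78.8 and 78.1 CPM in SUM159PT, and was not called there (log2 0.30). The SUM159PT libraries with STING sgRNA, with or without an added ORF, held 2.79 to 6.16 CPM. In other SUM159PT tables, RB1 was at 95.6 and 92.2 CPM in Tax-R libraries, at 53.4 and 55.1 CPM in Tax-R siC libraries and at 21.4 to 23.9 CPM in the Tax-R siMYC libraries. These levels come from tables that were normalized separately, by a factor that rescaling each library to its own sum removes. The Tax-R siC table held 0 mitochondrial rows and VIM at 2748.0 CPM in its first library. The mock SUM159PT table held 0 such rows and VIM at 1833.2 CPM in its first library. The difference between tables still cannot be told apart from that between cells, and the cause of the RB1 difference was not tested. CDKN2A, which encodes the p16 inhibitor upstream of RB1, was at 0.00 and 0.542 CPM in MDA-MB-436 and 0.686 and 0.139 CPM in SUM159PT. A transcript level does not show whether protein is made, and the identity of the cells was not tested, so the line names below are those of the labels.

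Markers of other cell types were low apart from single genes. Of 14 leukocyte markers, 5 were listed in neither mock table, CD3D, CD3E, MS4A1 and FCGR3A among them, 5 were under 2 CPM and 2 stood in 1 table only. PTPRC, which encodes the leukocyte phosphatase CD45, was nonetheless at 149.1 and 150.8 CPM in MDA-MB-436, against 13.3 and 16.7 CPM in SUM159PT (log2 3.29 ± 0.09, limma adjusted p = 3.68e-22). The summed leukocyte list came to 151.8 to 154.7 CPM in MDA-MB-436 and 16.6 to 19.3 CPM in SUM159PT, nearly all of it PTPRC. Of 9 fibroblast markers, 2 stood in 1 table only and entered neither the test nor the sum that follows. DCN, 1 of these, was listed for SUM159PT alone, at 10.01 and 12.65 CPM. The other fibroblast markers summed to 734.0 to 745.0 CPM in MDA-MB-436 and 178.4 to 189.8 CPM in SUM159PT, with 4 of 5 tested higher. COL1A1, a chain of type I collagen, made most of that sum, at 671.6 and 663.2 CPM in MDA-MB-436 and 164.6 and 152.4 CPM in SUM159PT. The summed endothelial markers were 14.2 to 15.1 CPM in MDA-MB-436 and 13.9 to 14.5 CPM in SUM159PT. Of 3 tested, PECAM1 was higher in MDA-MB-436 (log2 1.59 ± 0.20) and KDR, with 1 read in MDA-MB-436 and 58 in SUM159PT, was lower. In bulk RNA, fewer cells of a type and less RNA per cell cannot be told apart, and the part of these markers in the differences below was not tested.

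The DNA-sensing pathway itself did not separate the lines by 2-fold. None of the 20 cGAS-STING pathway genes tested was called, against 11.3% of all genes, while 6 were higher and 2 lower at adjusted p alone (limma), against the 30.4% and 26.9% above. STING1, listed under its older name TMEM173, was at 26.8 and 23.1 CPM in MDA-MB-436, against 37.6 and 33.2 CPM in SUM159PT (log2 -0.50 ± 0.11, limma adjusted p = 0.000235). CGAS, listed as MB21D1, was at 52.2 and 56.0 CPM in MDA-MB-436 and 37.2 and 40.7 CPM in SUM159PT (log2 0.47 ± 0.08). The adaptor was thus slightly lower and the sensor slightly higher in MDA-MB-436, without overlap in either gene. The pathway median was log2 0.10. Of 10 genes for RNA sensors and their adaptors, 2 were called, both higher in MDA-MB-436. RIG-I, listed as DDX58, was at 50.2 and 47.2 CPM in MDA-MB-436 against 6.86 and 7.92 CPM in SUM159PT, and the related helicase DHX58 was at 14.6 and 17.6 CPM against 5.62 and 7.65 CPM in SUM159PT.

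Downstream, interferon-stimulated genes were higher in mock MDA-MB-436. Of 41 tested, 21 were called higher and 0 lower, against 7.23% and 4.05% of all genes. The median was log2 1.12, against 0.024 for all genes. Over the other scalings, pseudocounts, tests and left-out libraries, the count was 21 to 22 and the median 1.05 to 1.20. OAS2, which makes the activator of RNase L, was at 28.96 and 31.27 CPM in MDA-MB-436, against 1.23 and 1.25 CPM in SUM159PT (log2 4.13 ± 0.19, limma adjusted p = 5.72e-17). TRIM22, an antiviral ubiquitin ligase, was at 20.6 and 22.2 CPM in MDA-MB-436 and 1.10 and 0.556 CPM in SUM159PT (log2 4.08 ± 0.23). EPSTI1, an interferon-response gene named for epithelial-stromal interaction, had 165 reads in MDA-MB-436 and 1 read in SUM159PT, a ratio of 166 with an exact 95% interval of 29.5 to 6610 that covers counting error only. Members that did not differ by 2-fold included BST2, an antiviral tether of virus particles at the cell surface, with means of 187.4 CPM in MDA-MB-436 and 181.9 CPM in SUM159PT (log2 0.04 ± 0.05), and IFITM3, a block to virus entry, with means of 486.4 CPM in MDA-MB-436 and 415.5 CPM in SUM159PT (log2 0.23 ± 0.04). Both were picked after their values were seen, as were the promoters shown next.

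Interferon acts on these genes through a short promoter element bound by IRF and STAT factors, and 4 promoters are shown because they hold the same element while the genes differ in how far the lines were apart. Each is the 250 bases before the gene's start in RefSeq (build GRCh38.p14), on the gene's own strand, and capitals mark matches to GAAA, any 2 bases and GAAA, searched on both strands. CXCL10 (chr4:76023498-76023747, minus strand) and EPSTI1 (chr13:42992242-42992491, minus strand) were higher in MDA-MB-436. BST2 (chr19:17405631-17405880, minus strand) and IFITM3 (chr11:320861-321110, minus strand) were not called.
CXCL10: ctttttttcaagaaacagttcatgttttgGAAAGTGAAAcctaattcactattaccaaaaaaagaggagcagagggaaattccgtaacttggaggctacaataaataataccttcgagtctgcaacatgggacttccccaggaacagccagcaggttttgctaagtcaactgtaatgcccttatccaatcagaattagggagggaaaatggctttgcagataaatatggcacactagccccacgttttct
EPSTI1: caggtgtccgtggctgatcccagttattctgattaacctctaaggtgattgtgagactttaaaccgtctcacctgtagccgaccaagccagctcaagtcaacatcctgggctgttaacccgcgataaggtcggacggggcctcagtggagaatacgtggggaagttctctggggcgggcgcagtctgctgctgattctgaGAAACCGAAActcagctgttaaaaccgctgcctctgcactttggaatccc
BST2: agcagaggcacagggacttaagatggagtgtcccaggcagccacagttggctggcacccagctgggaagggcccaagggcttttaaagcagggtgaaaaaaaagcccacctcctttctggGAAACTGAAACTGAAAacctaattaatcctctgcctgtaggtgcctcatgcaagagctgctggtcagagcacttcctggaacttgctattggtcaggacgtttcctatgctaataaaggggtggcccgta
IFITM3: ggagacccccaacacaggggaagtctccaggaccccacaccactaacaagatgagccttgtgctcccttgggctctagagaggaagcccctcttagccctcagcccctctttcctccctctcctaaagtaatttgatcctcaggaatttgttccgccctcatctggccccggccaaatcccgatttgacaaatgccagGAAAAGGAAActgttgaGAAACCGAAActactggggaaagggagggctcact
The match began at base -221 in CXCL10 and at -50 in EPSTI1. BST2 held 2 matches that overlap each other, at -130 and -124, and IFITM3 held 2, at -52 and -35. Of 35116 promoter windows in the table, 3.02% held the motif. Among the 41 interferon-stimulated genes tested, 33 matched the table by symbol, and 23 of these held it, namely 11 of 15 called and 12 of 18 not called. A gene counted if any of its windows held the motif, so these counts are per gene and the 3.02% is per window. The letters were therefore present in called and uncalled members, and a match does not show that a factor binds there.

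Of 4 chemokines that attract T cells, 3 were higher and 1 lower in MDA-MB-436. CCL5 was at 60.8 and 58.2 CPM in MDA-MB-436, against 0.823 and 0.695 CPM in SUM159PT (log2 5.58 ± 0.18, limma adjusted p = 1.07e-20). CXCL10, a ligand of CXCR3, was at 34.7 and 35.5 CPM in MDA-MB-436, against 0.823 and 0.139 CPM in SUM159PT (log2 5.27 ± 0.25, limma adjusted p = 1.4e-16). CXCL11, which binds the same receptor, was at 37.7 and 37.2 CPM in MDA-MB-436, against 0.823 and 1.11 CPM in SUM159PT (log2 4.70 ± 0.19). All 3 were near 1 CPM or under it in SUM159PT, and no value overlapped. CXCL16, a membrane-bound ligand of CXCR6, was the lower member (log2 -1.0 ± 0.16), and its call was lost in 4 of 16 alternatives, among them without MDA-MB-436 replicate 1 and without SUM159PT replicate 1 (range -1.15 to -0.86). Of 6 neutrophil and monocyte chemokines tested, 3 were higher and 0 lower. CXCL8, also called interleukin 8, was at 71.4 and 76.1 CPM in MDA-MB-436, against 22.5 and 19.3 CPM in SUM159PT (log2 1.80 ± 0.09).

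**Figure D2:**
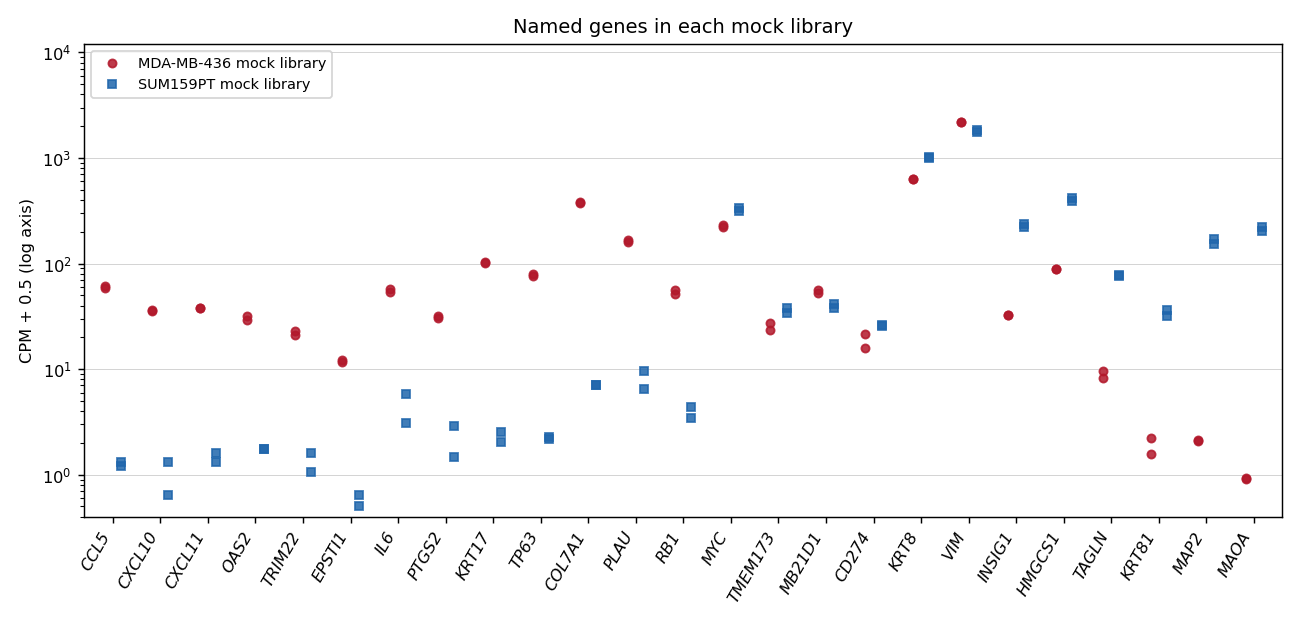
CPM + 0.5 on a log axis for 25 named genes in each mock library, with MDA-MB-436 as circles and SUM159PT as squares to their right, 2 libraries a line. CCL5, CXCL10 and the other immune genes at the left separate the lines far more than TMEM173 (STING1), MB21D1 (CGAS), CD274 or VIM, and INSIG1 to MAOA at the right are higher in SUM159PT.

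Inflammatory cytokines and NF-kB targets moved with the chemokines. Of 24 tested, 16 were higher and 1 lower in MDA-MB-436, against 7.23% and 4.05% of all genes, with a median of log2 1.21. The cytokine IL6 was at 53.5 and 57.1 CPM in MDA-MB-436, against 2.61 and 5.28 CPM in SUM159PT (log2 3.72 ± 0.18). PTGS2, the inducible cyclooxygenase COX-2, was at 31.5 and 29.6 CPM in MDA-MB-436, against 0.960 and 2.36 CPM in SUM159PT (log2 3.93 ± 0.23). CSF2, which encodes GM-CSF, had 102 reads in MDA-MB-436 and 3 in SUM159PT, a ratio of 34.3 with an exact 95% interval of 11.4 to 169. The member called lower was IL18, a cytokine stored as a precursor in epithelial cells (log2 -1.02 ± 0.07), and that call was lost in 3 of 16 alternatives, with pseudocount 2 and without MDA-MB-436 replicate 1 or SUM159PT replicate 1 (range -1.08 to -0.95). Complement genes followed the same side, with 4 of 14 higher and 0 lower. C1S, a serine protease that starts the classical complement pathway, was at 152.6 and 160.9 CPM in MDA-MB-436, against 14.3 and 15.6 CPM in SUM159PT. Its partner C1R was at 133.6 and 137.4 CPM in MDA-MB-436, against 15.8 and 14.9 CPM in SUM159PT.

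Class I antigen presentation genes did not separate the lines by 2-fold, whereas some checkpoint ligands did. None of 21 class I presentation genes was called, while 12 were higher and 3 lower at adjusted p alone (limma), and log2 fold changes ran from -0.57 for the class I activator NLRC5 to 0.81 for HLA-B. CD274, which encodes PD-L1, was at 15.3 and 20.9 CPM in MDA-MB-436 and 25.9 and 25.3 CPM in SUM159PT and was not called (log2 -0.51 ± 0.13, limma adjusted p = 0.00154). The checkpoint ligand list held 5 higher and 1 lower of 13, against 7.23% and 4.05% of all genes. IDO1, which degrades tryptophan, was at 13.5 and 16.1 CPM in MDA-MB-436, against 0.960 and 0.417 CPM in SUM159PT (log2 3.72 ± 0.25). The lower member was VSIR, listed as C10orf54, which encodes the checkpoint protein VISTA, at 4.88 and 4.20 CPM in MDA-MB-436 and 12.3 and 12.2 CPM in SUM159PT (log2 -1.35 ± 0.18).

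Basal genes were more often higher than lower in MDA-MB-436, with a median of log2 1.38, while single keratins went either way. Of 15 basal genes tested, 8 were higher and 2 lower in MDA-MB-436, against 7.23% and 4.05% of all genes. TP63, the master regulator of basal epithelium, was at 76.3 and 78.9 CPM in MDA-MB-436, against 1.78 and 1.67 CPM in SUM159PT (log2 5.13 ± 0.15, limma adjusted p = 8.8e-22). KRT17, a basal keratin, was at 103.7 and 100.8 CPM in MDA-MB-436 and 2.06 and 1.53 CPM in SUM159PT (log2 5.50 ± 0.14). The lower members were the keratin genes KRT6A and KRT81. KRT81 was at 1.72 and 1.08 CPM in MDA-MB-436, against 31.4 and 35.5 CPM in SUM159PT. Of the basal pair KRT14 and KRT5, KRT14 was listed in the MDA-MB-436 table alone, at 3.73 and 2.98 CPM, and KRT5 in the SUM159PT table alone, at 27.2 and 26.4 CPM. Of 13 epithelial junction and differentiation genes tested, 5 were higher and 2 lower, with a median of log2 0.82. ELF3, an epithelial transcription factor, CD24, a surface glycoprotein, and CLDN4, a tight-junction claudin, were among the higher ones (log2 3.75 ± 0.31, 2.36 ± 0.12 and 2.08 ± 0.22). The lower members were CLDN7, another claudin, and KRT7. CLDN7 was at 0.860 and 0.406 CPM in MDA-MB-436 and 2.06 and 2.22 CPM in SUM159PT (log2 -1.25 ± 0.33). Its call was lost with DESeq2 and with pseudocount 2, and its log2 ranged from -1.79 to -0.66 over the alternatives. KRT7, a simple-epithelial keratin, was at 283.0 and 276.4 CPM in MDA-MB-436, against 1398 and 1294 CPM in SUM159PT (log2 -2.26 ± 0.04). KRT8 and KRT18, which pair with each other in simple epithelium, were not called (log2 -0.68 ± 0.04 and -0.33 ± 0.04).

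Matrix genes made up some of the largest differences in abundant transcripts. Of 20 collagen genes tested, 10 were higher and 4 lower in MDA-MB-436, against 7.23% and 4.05% of all genes. COL6A3, a chain of the microfibrillar collagen VI, was at 1897 and 1864 CPM in MDA-MB-436, against 168.6 and 183.2 CPM in SUM159PT (log2 3.42 ± 0.04, limma adjusted p = 2e-30). COL7A1, the anchoring-fibril collagen, was at 381.7 and 376.5 CPM in MDA-MB-436, against 6.58 and 6.53 CPM in SUM159PT (log2 5.75 ± 0.08). COL12A1, a fibril-associated collagen, went the other way, at 111.3 and 123.2 CPM in MDA-MB-436 and 394.3 and 442.0 CPM in SUM159PT (log2 -1.83 ± 0.06). Matrix proteases and their inhibitors were higher for 7 of 14 and lower for 0. PLAU, which encodes urokinase, was at 165.5 and 160.7 CPM in MDA-MB-436, against 6.04 and 9.18 CPM in SUM159PT (log2 4.36 ± 0.12), although 31.1% of its exon bases overlap the gene C10orf55. The gelatinase gene MMP2 was at 92.9 and 97.2 CPM in MDA-MB-436 and 8.09 and 7.09 CPM in SUM159PT. Integrins and laminins were higher for 10 of 24 and lower for 2, with the collagen receptor subunit ITGA2 at 299.7 and 314.0 CPM in MDA-MB-436 and 25.4 and 26.4 CPM in SUM159PT (log2 3.54 ± 0.06).

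Among mesenchymal markers 7 of 24 were higher and 3 lower, against 7.23% and 4.05% of all genes. Calls were thus more often higher than lower, while the median of log2 0.09 lay near the 0.024 of all genes. PDGFRA, a receptor for platelet-derived growth factor, was at 33.6 and 35.5 CPM in MDA-MB-436, against 3.43 and 4.73 CPM in SUM159PT (log2 2.95 ± 0.16). TAGLN, an actin-binding protein of contractile cells, was at 9.03 and 7.72 CPM in MDA-MB-436, against 77.1 and 75.1 CPM in SUM159PT (log2 -3.11 ± 0.11).

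**Figure D3:**
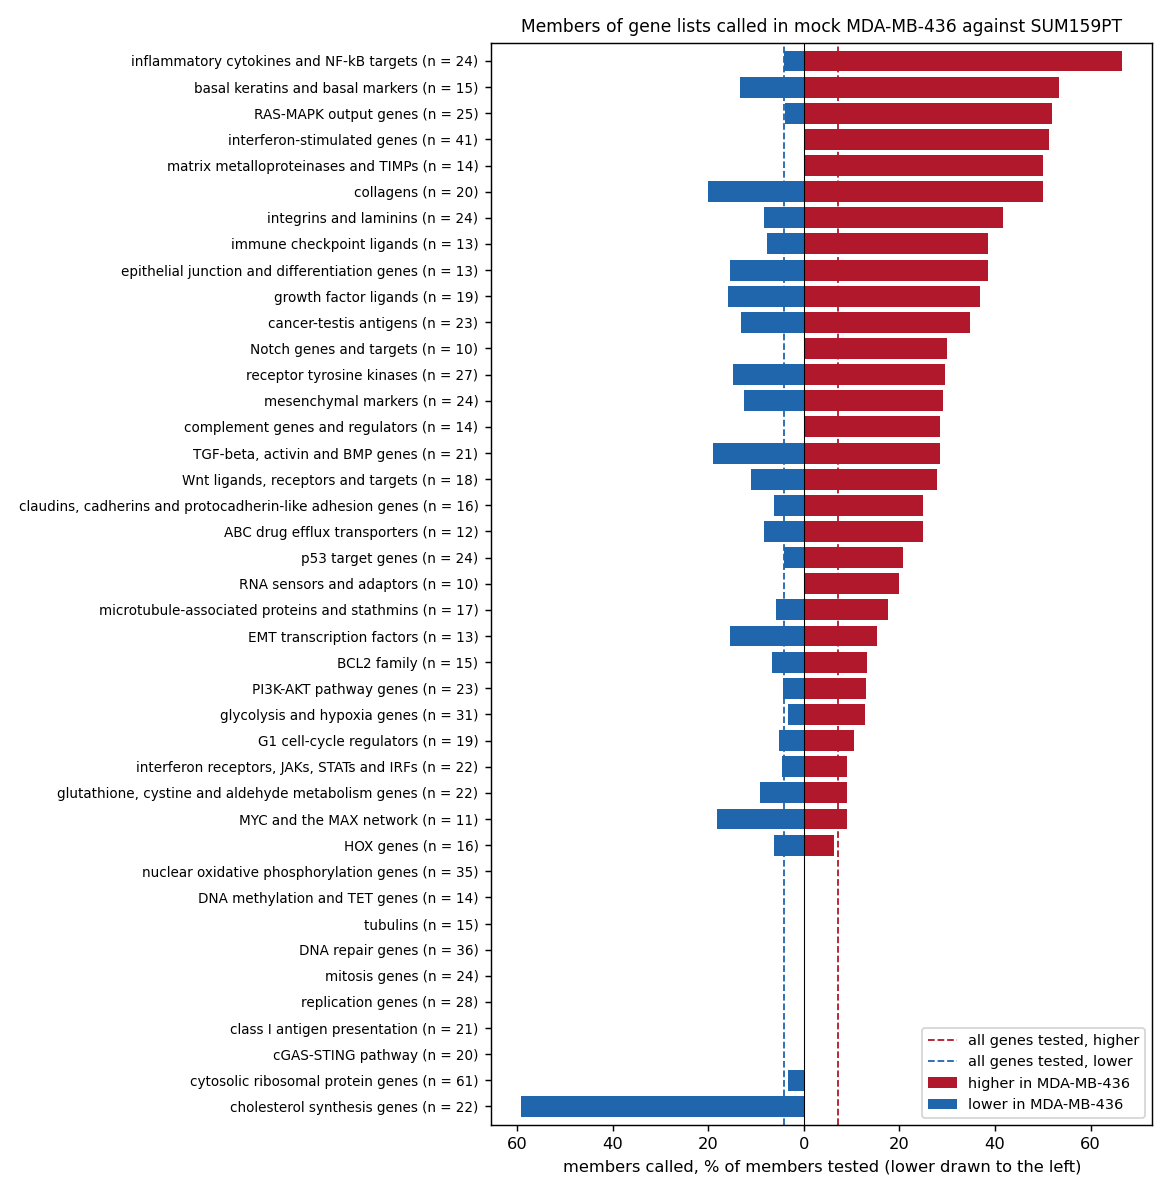
Share of tested members called in each of 41 gene lists with at least 10 members tested, in mock MDA-MB-436 against mock SUM159PT, with members higher in MDA-MB-436 to the right, lower to the left, and dashed lines at the 7.23% and 4.05% of all genes. Inflammatory, basal, RAS-MAPK and interferon-stimulated lists reach furthest right, cholesterol synthesis reaches furthest left, and 8 lists from oxidative phosphorylation to the cGAS-STING pathway have no member called.

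Growth factor ligands, receptors and the output of RAS-MAPK signalling differed as well. Of 19 ligands tested, 7 were higher and 3 lower in MDA-MB-436, against 7.23% and 4.05% of all genes. EREG, an EGFR ligand, was at 99.5 and 98.8 CPM in MDA-MB-436, against 0.412 and 0.973 CPM in SUM159PT (log2 6.43 ± 0.19, limma adjusted p = 1.02e-21). HGF, the ligand of MET, had 600 reads in MDA-MB-436 and 2 in SUM159PT, a ratio of 303 with an exact 95% interval of 83.4 to 2500. VEGFC, which drives growth of lymphatic vessels, was at 70.4 and 65.8 CPM in MDA-MB-436 and 0.412 and 1.39 CPM in SUM159PT (log2 5.71 ± 0.22). Receptor tyrosine kinases were higher for 8 of 27 and lower for 4. EPHB2, a receptor for ephrins, was at 90.9 and 84.5 CPM in MDA-MB-436, against 0.686 and 0.834 CPM in SUM159PT (log2 6.13 ± 0.17), whereas EGFR was not called at 150.8 and 139.6 CPM in MDA-MB-436 and 103.8 and 123.7 CPM in SUM159PT. Of 25 RAS-MAPK output genes, 13 were higher and 1 lower, with a median of log2 1.04. The ERK phosphatase gene DUSP6 was at 126.2 and 121.6 CPM in MDA-MB-436, against 8.09 and 8.62 CPM in SUM159PT (log2 3.81 ± 0.10), with 40.5% of its exon bases shared with another annotated gene. HMGA2, a chromatin protein of fetal and tumour cells, was at 61.9 and 51.4 CPM in MDA-MB-436 and 0.823 and 0.695 CPM in SUM159PT (log2 5.50 ± 0.18). EGR1, an immediate-early transcription factor, was the lower member (log2 -1.03 ± 0.10), a call lost in 2 of 16 alternatives, with pseudocount 2 and without MDA-MB-436 replicate 1 (range -1.16 to -0.90).

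Cholesterol synthesis was the list with the most members lower in MDA-MB-436. Of 22 tested, 13 were lower and 0 higher, against 4.05% and 7.23% of all genes, with a median of log2 -1.25. At adjusted p alone 20 were lower, against 26.9% of all genes. HMGCS1, the enzyme that makes HMG-CoA, was at 88.0 and 88.9 CPM in MDA-MB-436, against 392.7 and 417.1 CPM in SUM159PT (log2 -2.19 ± 0.05, limma adjusted p = 5.39e-24). INSIG1, which holds the sterol-sensing complex in the endoplasmic reticulum, was at 31.8 and 31.7 CPM in MDA-MB-436, against 234.0 and 222.4 CPM in SUM159PT (log2 -2.83 ± 0.06). The count was 12 to 13 and the median -1.32 to -1.15 over the other scalings, pseudocounts, tests and left-out libraries. ABCA1 and ABCG1, which export cholesterol, were higher in MDA-MB-436, with ABCA1 at 88.6 and 89.6 CPM in MDA-MB-436 and 20.9 and 22.2 CPM in SUM159PT (log2 2.02 ± 0.08). Neither was called in parental libraries (log2 0.27 for ABCA1 and 0.28 for ABCG1).

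The drug efflux transporters pointed both ways. ABCG2, also called BCRP, was at 43.3 and 38.3 CPM in MDA-MB-436, against 3.98 and 4.87 CPM in SUM159PT (log2 3.07 ± 0.15). ABCB1, which encodes the taxane pump P-glycoprotein, was at 3.01 and 1.62 CPM in MDA-MB-436, against 14.1 and 12.8 CPM in SUM159PT (log2 -2.35 ± 0.23, limma adjusted p = 6.42e-10). In all, 3 of 12 transporters on this list were higher and 1, ABCB1, was lower, against 7.23% and 4.05% of all genes. The 3 higher ones were ABCG2 and the cholesterol exporters ABCA1 and ABCG1 named above.

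Few proliferation and housekeeping genes differed by 2-fold. No member was called among 28 replication, 24 mitosis, 36 DNA repair, 35 nuclear oxidative phosphorylation, 15 tubulin or 14 DNA methylation genes, against 11.3% of all genes. Small shifts were common at adjusted p alone, where 30.4% of all genes were higher and 26.9% lower. Of 28 replication genes, 23 were lower in MDA-MB-436 and 0 higher, with a median of log2 -0.29. Among 35 nuclear oxidative phosphorylation genes 20 were lower and 3 higher, and among 24 mitosis genes 6 were lower and 10 higher. Of 61 ribosomal protein genes, 2 were called lower, the paralogues RPL22L1 and RPL39L. At adjusted p alone 45 of the 61 were lower and 0 higher, with a median of log2 -0.23. MYC was at 222.7 and 229.6 CPM in MDA-MB-436, against 331.6 and 317.0 CPM in SUM159PT, and was not called (log2 -0.52 ± 0.05, limma adjusted p = 1.09e-10). Of 16 HOX genes tested, which record position along the body axis, HOXA3 was higher and HOXD13 lower, near the 7.23% and 4.05% of all genes. HOXD13 lost its call with pseudocount 2 (range -2.56 to -0.87).

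The genes with the largest fold changes at a mean of 20 CPM or more averaged under 2 CPM in the lower line, except COL7A1. STAC2, which anchors calcium channels in muscle and neurons, had 1 read in MDA-MB-436 and 2720 in SUM159PT, a ratio of 2700 with an exact 95% interval of 484 to 107000. MYBPC1, a myosin-binding protein of skeletal muscle, had 2 reads in MDA-MB-436 and 2646 in SUM159PT, a ratio of 1310 with an interval of 363 to 10800. MAOA, which oxidises monoamines, was at 0.430 and 0.406 CPM in MDA-MB-436, against 204.2 and 222.4 CPM in SUM159PT (log2 -7.86 ± 0.14). The neuronal microtubule-associated protein gene MAP2 was at 1.58 and 1.62 CPM in MDA-MB-436, against 152.4 and 169.6 CPM in SUM159PT (log2 -6.26 ± 0.13). Also among the 10 lowest were SULT1B1, ADGRG2, KCNH2, SERPINA3 and FBLN5, each under 1 CPM in MDA-MB-436. At the other end, SLC14A1, a urea transporter, had 1080 reads in MDA-MB-436 and 3 in SUM159PT, a ratio of 363 with an exact 95% interval of 124 to 1760. SOST, which encodes the Wnt antagonist sclerostin, had 1066 reads in MDA-MB-436 and 3 in SUM159PT, a ratio of 358 with an interval of 122 to 1740. The cancer-testis gene MAGEC1 had 550 reads in MDA-MB-436 and 1 in SUM159PT, a ratio of 555 with an interval of 99.1 to 21900. CLEC2B, PAGE2B, EREG, SMOC1, EPHB2, HGF and COL7A1 complete the 10 highest, and reads of PAGE2B can be shared with its near-identical copy PAGE2.

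Genes listed in 1 table alone were outside the test. Among them 63 reached a mean of 2 CPM in MDA-MB-436 and 27 in SUM159PT. The MDA-MB-436 side included NLRP2 at 14.1 and 12.9 CPM, the lymphocyte activation marker CD69 at 11.5 and 11.4 CPM and the collagenase gene MMP1 at 7.74 and 6.90 CPM. The SUM159PT side was led by NPTX2, a neuronal pentraxin, at 104.4 and 104.8 CPM. IL1RL1, the receptor of interleukin 33, was at 58.6 and 61.7 CPM and the transcription factor gene ZBTB16 at 35.9 and 41.2 CPM there. The ligand IL33 was listed in the MDA-MB-436 table alone, at 6.45 and 5.41 CPM, and its receptor in the SUM159PT table alone. These genes were picked after their values were seen.

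The parental libraries, which share no sample with the mock ones, gave the direction of most calls and the size of fewer. Of the 1717 mock calls, 1570 were tested in parental libraries, 1433 of these (91.3%) had the same sign, 724 (46.1%) were called the same way and 13 the opposite way. In that comparison 1699 of 17093 genes (9.94%) were called, 6.52% higher and 3.42% lower, and the shared genes were 42.6% of them. Fold changes correlated with r = 0.73 across 13750 genes, which are not independent replicates. The parental tables differed in content from the mock ones, since they held 30 to 32 mitochondrial rows against 0 and VIM stood at 117.5 CPM in the first MDA-MB-436 library and 101.6 CPM in the first SUM159PT library. Levels in mock and parental libraries are thus not on a common footing, the RB1 levels above included, and how far processing and cells each enter the comparison of the 2 line differences cannot be told apart. The line difference itself differed between mock and parental libraries for 1000 of 14747 genes (6.78%), more positive in mock for 570 (3.87%) and more negative for 430 (2.92%). That balance turned over with TMM scaling, which gave 508 more positive and 555 more negative.

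**Figure D4:**
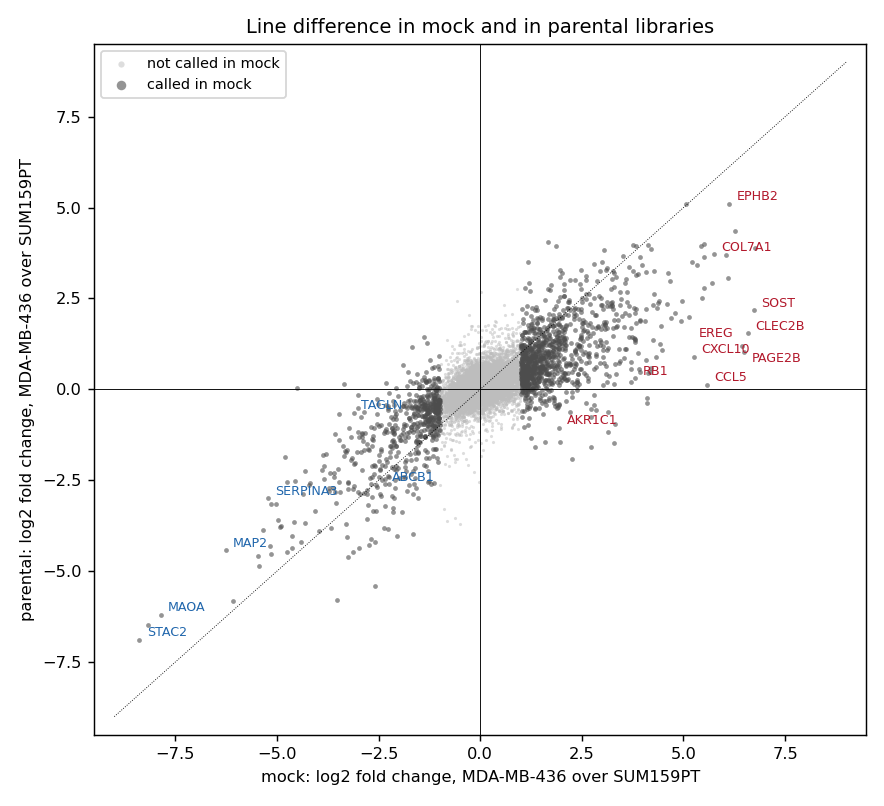
Log2 fold change of MDA-MB-436 over SUM159PT in parental libraries (vertical axis) against mock libraries (horizontal axis), where each point is a gene, dark points were called in mock and the dotted line marks equal differences. STAC2, MAOA and EPHB2 lie far out on both axes, while CCL5, CXCL10 and RB1 lie far out on the mock axis and between 0.13 and 0.90 on the parental one.

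Interferon-stimulated genes differed between the 2 sets of libraries. In parental libraries 3 of 42 were higher and 1 lower, near the 6.52% and 3.42% of all genes there, with a median of log2 -0.07. In mock libraries 21 of 41 were higher and 0 lower, with a median of log2 1.12. The line difference was more positive in mock for 22 of 41 and more negative for 0 (interaction term, limma, called as above). Over all genes these shares were 3.87% and 2.92%, which are also the background of the interaction counts that follow. CCL5 was at 4.55 and 4.12 CPM in parental MDA-MB-436, against 4.17 and 3.66 CPM in parental SUM159PT (log2 0.13). CXCL10 was at 7.81 and 8.66 CPM in parental MDA-MB-436, against 4.17 and 4.17 CPM in parental SUM159PT (log2 0.90). CXCL11 was at 14.3 and 13.6 CPM in parental MDA-MB-436, against 3.15 and 3.36 CPM in parental SUM159PT, and was called there too (log2 1.95, limma adjusted p = 6.16e-08). CCL5 and CXCL10 were not called in parental libraries, although CXCL10 did not overlap, and all 3 chemokines were further apart between the mock lines. Complement genes also differed between the sets, since 0 were higher and 5 lower of 13 in parental libraries and the difference was more positive in mock for 8 of 14. Of 25 RAS-MAPK output genes, 9 were higher and 0 lower in parental libraries, and the difference was more positive in mock for 7 and more negative for 2. For cholesterol synthesis 3 of 22 were lower and 0 higher there, and the difference was more negative in mock for 6.

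STAC2, MYBPC1, MAOA and MAP2 separated the parental lines as well. MAOA was at 2.27 and 2.74 CPM in parental MDA-MB-436, against 215.0 and 226.3 CPM in parental SUM159PT (log2 -6.20). EPHB2 was at 141.5 and 140.5 CPM in parental MDA-MB-436 and 3.15 and 4.07 CPM in parental SUM159PT (log2 5.11). ABCB1 was lower in parental MDA-MB-436 too (log2 -2.61), and its line difference did not pass the interaction test (0.26 ± 0.27, limma adjusted p = 0.476). EREG was at 120.5 and 125.2 CPM in parental MDA-MB-436 and 49.2 and 57.4 CPM in parental SUM159PT (log2 1.20). SOST was at 49.5 and 49.2 CPM in parental MDA-MB-436 and 10.9 and 10.3 CPM in parental SUM159PT (log2 2.17). EREG and SOST thus had the same direction in both sets of libraries, with a smaller difference in the parental one.

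In the libraries with STING sgRNA, the 2 lines kept most of the differences seen in mock. Of the mock calls tested there, 76.6% were called the same way with STING sgRNA C1, 75.9% with C2 and 67.8% with STING sgRNA plus the GFP ORF, where 8.07%, 7.76% and 6.83% of all genes were higher and 6.92%, 6.67% and 6.8% lower. In all 5 sets of libraries 488 genes were called in the same direction, 287 higher and 201 lower in MDA-MB-436. The sets are not equal repeats, since the C1 and C2 libraries share their tables with the mock ones. The parental libraries and those with the GFP ORF do not. Interferon-stimulated genes were higher for 5 of 34 with C1, 6 of 37 with C2 and 4 of 34 with the GFP ORF. In the same order, 1, 2 and 1 of them were lower, and the medians were log2 -0.13, -0.05 and -0.01. Among the 5 higher with C1 were XAF1, OAS2 and GBP4 (log2 2.9, 2.59 and 2.01). These medians do not cover the same genes as that of the 41 in mock. EPSTI1, OASL, HERC5 and IFIT2, at log2 4.41, 2.66, 2.22 and 1.81 in mock, were not tested in these 3 sets. RAS-MAPK output genes were higher for 16, 16 and 15 of 25 in the same sets, and cholesterol synthesis genes lower for 14 of 22, 14 of 22 and 9 of 21. Inflammatory cytokines and NF-kB targets were higher for 12 of 22 with C1, 12 of 22 with C2 and 10 of 21 with the GFP ORF. In the same order, 2, 1 and 2 of them were lower, and the medians were log2 1.28, 1.37 and 0.73. CCL5 was at 0.144 and 0.303 CPM in MDA-MB-436 with C1, and had 0 reads in both SUM159PT libraries with C1. CXCL10 and CXCL11 were still called higher with C1 (log2 2.31 and 3.52) and with C2 (log2 2.55 and 3.65). Whether the difference between lines itself differs between mock and sgRNA libraries was not tested.

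**Figure D5:**
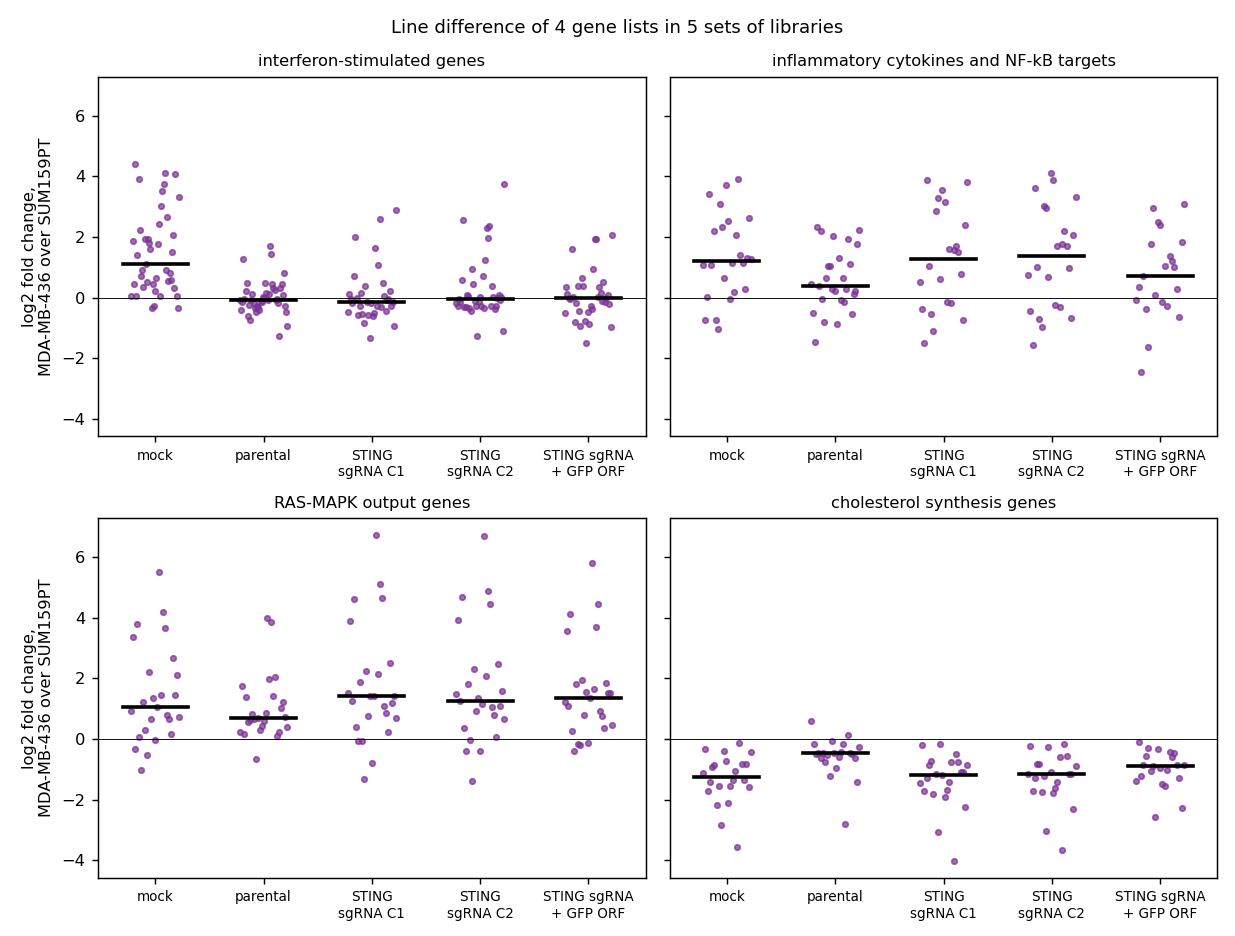
Log2 fold change of MDA-MB-436 over SUM159PT for the members of 4 gene lists in 5 sets of libraries, where each point is a gene and the bar is the median. Medians are over the members tested in each set, which are not the same genes throughout. The median of interferon-stimulated genes is 1.12 in mock and between -0.13 and -0.01 in the other 4 sets. In every set the median stays above 0 for inflammatory and RAS-MAPK output genes and below 0 for cholesterol synthesis genes.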

How the data were processed

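Total RNA was taken with the Maxwell RSC simplyRNA Cells Kit, and sequencing libraries followed a standard Illumina protocol, per the labels. The deposited values are signal, that is, normalized gene counts in which each library carries a single scaling factor. HISAT2, featureCounts, StringTie and DESeq2 are named without versions or roles, per the submitters' processing notes, and the genome build and the use of strand are not given in the sources used here. At a tolerance of 0.05 reads, 100% of the values came out as whole reads. Unmapped columns numbered 0. Both mock tables list no row under 2 reads in total and no mitochondrial rows.

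Tables were joined by symbol, with older names resolved through the gene name table, and columns were rescaled to CPM. Main fits used limma 3.58.1 in R 4.3.3 (trended) on log2(CPM + 0.5), unpaired, with 4 libraries for each comparison of lines and 8 for the interaction of line with library set. Alternatives included edgeR 4.0.16 and DESeq2 1.42.0 on recovered reads, and the fit was tested on simulated data. Genes named were a set list of markers and pathway genes, up to 3 called members each way from each of 52 lists, and the 10 called genes at each end of the fold changes that reached 20 CPM in their higher line without overlap. Other genes are said to have been picked after their values were seen. The members and lists were chosen with earlier results of these data known. Folds with 1 to 3 reads in a group carry exact 95% intervals. Exon overlap came from GENCODE and also touched SERPINA3 (31.8% of exon bases). Some genes that the rule names are not reported here. Mock MDA-MB-436 libraries differed little beyond sampling noise (mean chi-square per gene 1.019, p = 0.0359 over all genes) and were kept as 2 samples, with 1 sample as an alternative.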

Additional observations from a re-analysis of the deposited data

Results flagged for a closer look

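For the genes below, the difference between the lines itself differed between mock and parental libraries (limma interaction term over 8 libraries, adjusted p below 0.05 and at least 2-fold). Each value is the log2 difference in mock minus that in parental libraries. Among genes that are higher in MDA-MB-436, it was 5.45 ± 0.24 for CCL5, 4.37 ± 0.35 for CXCL10, 2.75 ± 0.24 for CXCL11 and 3.51 ± 0.14 for RB1. It was 5.45 ± 0.25 for PAGE2B, 5.23 ± 0.21 for EREG, 5.04 ± 0.19 for CLEC2B and 4.56 ± 0.19 for SOST. Smaller values were found for MAGEC1 (3.06 ± 0.21), SLC14A1 (2.85 ± 0.19), HGF (2.35 ± 0.22), COL7A1 (2.04 ± 0.08), SMOC1 (1.89 ± 0.28) and EPHB2 (1.02 ± 0.19). Among genes lower in MDA-MB-436, it was -2.23 ± 0.22 for SERPINA3, -1.83 ± 0.13 for MAP2, -1.67 ± 0.17 for MYBPC1, -1.66 ± 0.16 for MAOA, -1.48 ± 0.23 for STAC2 and -1.47 ± 0.28 for KCNH2. All 20 were wider apart in mock than in parental libraries, but most were named for the size of their mock difference, which favours that direction. For genes near 0 reads in a group these values depend on the pseudocount. Mock and parental libraries also stand in separate tables that differ in content, which cannot be told apart from the cells, and the cause was not tested.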

How the results depend on the processing

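In mock libraries, 147 of 165 named genes kept their direction and call in every alternative, and the other 18 kept their direction. Counts of mock calls, 1717 (1101 higher and 616 lower) as reported, were 959 (634 and 325) with a mean of at least 10 CPM, 8732 (4633 and 4099) at adjusted p alone and 578 (360 and 218) at 4-fold. Parental calls were 815 (500 and 315) with at least 10 CPM, and 714 were higher with pseudocount 2. Interaction calls were 560 (327 and 233) with at least 10 CPM, 1548 (770 more negative) without a filter and 626 (236 more negative) with pseudocount 2. With TMM scaling the interaction gave 508 more positive and 555 more negative, against 570 and 430. The other alternatives stayed within 1.5 times, with 1916 mock calls by edgeR and 1639 by DESeq2. Leaving out 1 library gave 1714 to 1813 mock calls (1091 to 1182 higher, 623 to 636 lower), 1674 to 1794 parental calls (1072 to 1190 higher, 573 to 617 lower) and 1017 to 1093 interaction calls (578 to 645 more positive, 436 to 463 more negative). The lone library was then assumed to vary like the other group. With a replicate block the counts were 1717, 1699 and 1000, and the same-numbered mock libraries did not deviate together (r = 0.02). With genes of 1 table set to 0 in the other, 1807 genes were called. Directions that reversed were all of uncalled values. In parental libraries this was CCL5 with quantile scaling (-0.01). In the interaction they were ABCB1 with quantile scaling (-0.60) and without 1 library (-0.10 to 0.62, the lowest without MDA-MB-436 replicate 1), SULT1B1 with pseudocount 2 (0.28) and without 1 library (-0.57 to 0.09, the highest without MDA-MB-436 replicate 2), and TMEM173 with quantile scaling (0.02) and without 1 library (-0.16 to 0.05, the highest without MDA-MB-436 replicate 2, and 0.03 without SUM159PT replicate 1). The cause was not tested. Genes under about 2 CPM rest on few reads at this depth.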
